A study of Mus musculus with 12 samples.

Results

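The genes described here were the chemokines and the chemokine receptors of the CC, CXC and CX3C families. They were chosen by symbol alone, as every gene named Ccl, Cxcl, Ccr or Cxcr with a number, together with Cx3cl1 and Cx3cr1. This gave 49 genes, 33 ligands and 16 receptors, of 21579 genes measured in the mouse gonads of the series. All 49 were on the adult array, among 19938 genes, and 46 were on the array used for newborns, among 18194 genes. Ccl19, Ccl26 and Cxcr1 were used from the adult array only.

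Chemokines are small secreted proteins that steer the migration of cells carrying the matching G-protein-coupled receptors. Inflammatory chemokines are made on demand and draw monocytes, neutrophils or activated lymphocytes into a tissue, whereas homeostatic chemokines guide the standing traffic of cells. In the gonad, Cxcl12 and its receptor Cxcr4 guide migrating primordial germ cells, and leukocytes take part in ovulation and in the regression of the corpus luteum.

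The study asked what the loss of Foxl2, a forkhead transcription factor of granulosa cells, does to ovarian gene expression, with testis as the reference for a male pattern. The adult set was taken at 8 weeks and held 2 wild-type ovaries, 3 mutant ovaries of the genotype Foxl2 flox/flox x CreEBD and 3 wild-type testes. Each adult array carried RNA of the organ of 1 animal perfused with PBS, taken from the whole ovary or from 0.25 of a testis. The newborn set was taken at postnatal day 3 (P3) and held 2 arrays of wild-type ovaries and 2 of Foxl2 KO ovaries, each a pool of more than 10 females that were not perfused. The labels do not say when or in which cells the floxed gene was deleted, whether the adult controls carried Cre or a floxed allele, or at which stage of the cycle the adult females were. RNA came from the whole organ, in which fewer cells of a type and less RNA per cell cannot be told apart.

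Adult values were log2 levels made with RMA, a method that corrects, scales and summarises the probes of each gene's probe set. P3 values were linear MAS5 signals. The median over all probe sets lay between 4.83 and 4.94 on the adult arrays and between 116.6 and 126.8 on the P3 arrays, and no detection call was used. A level is therefore set against its own array's median as a rough mark of signal. Each probe set responds on its own scale, so the levels of different genes are given side by side without reading one as more abundant than another. The level of Foxl2 was 8.75 and 8.81 in adult wild-type ovaries, 5.73 to 6.04 in the mutant ovaries and 5.22 to 5.38 in the testes. At P3 Foxl2 was 814.5 and 829.9 in wild-type pools and 186.4 and 153.7 in KO pools. The 3 Y-linked genes measured lay between 2.42 and 3.88 on the 5 adult ovary arrays and between 4.09 and 6.55 on the testis arrays. The 7 measured Sertoli cell markers, on the list used, were all higher in mutant than in wild-type ovaries, and 5 of 8 granulosa cell markers were lower. The 2 adult wild-type ovaries differed from each other, with a mean level over the 8 granulosa cell markers between 8.69 and 9.96 and Fshr, the receptor for follicle-stimulating hormone, at 8.31 and 5.75.

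Most of the family lay low in the adult gonads. Of the 49 genes, 27 were above the array median on none of the 8 adult arrays, 15 on some and 7 on all of them. Of the 33 ligands 14 were above it on no array, and of the 16 receptors 13 were above it on no array, among them all 9 CC receptors. The genes above it on every adult array were Ccl5, Ccl19, Ccl25, Cxcl1, Cxcl16, Cx3cr1 and Cxcr4. Ccl19 is read by several adult probe sets of nearly the same values, and its copies cannot be separated here.

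**Figure D1:**
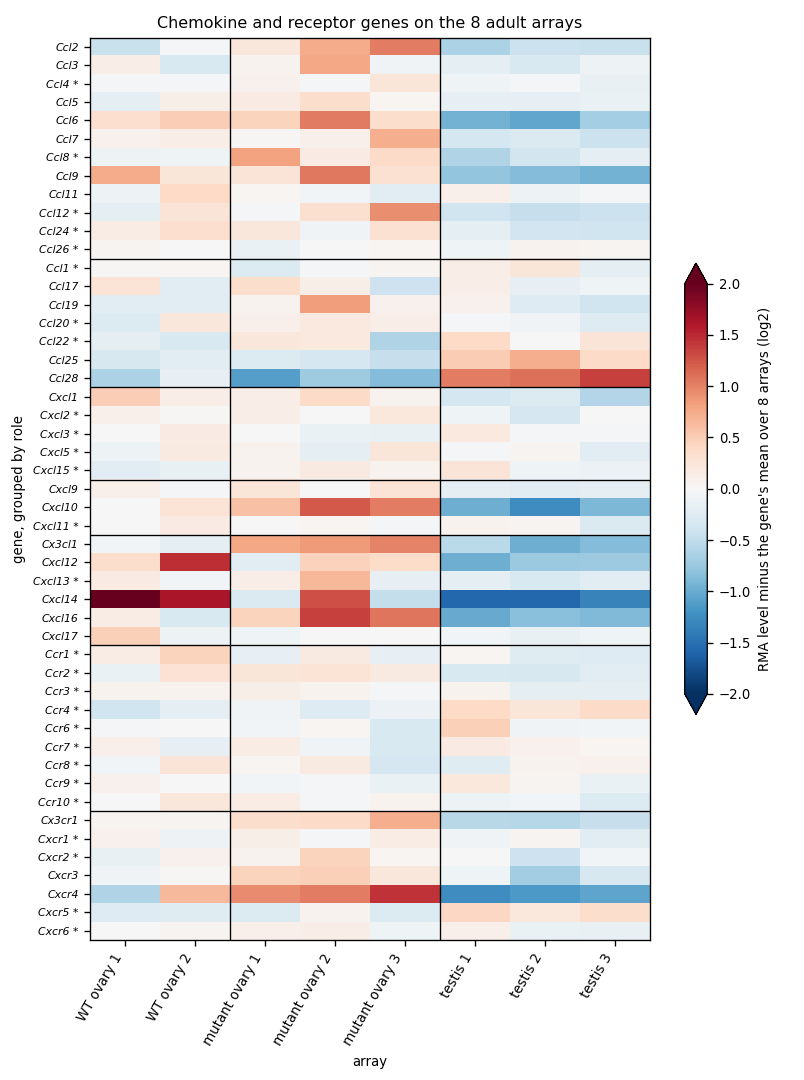
Adult levels of the 49 genes (rows, grouped by role: inflammatory CC ligands, other CC ligands, CXC ligands of Cxcr2, CXC ligands of Cxcr3, remaining CXC and CX3C ligands, CC receptors, CXC and CX3C receptors) on the 8 arrays (columns); colour is the log2 RMA level minus the gene's own mean over the 8 arrays, and colours end at 2 in either direction. An asterisk marks the 27 genes above the array median on no array; Cxcl14, Cxcl12, Ccl6, Ccl9, Cxcl10 and Cxcr4 are lower in the testis columns than in the wild-type ovary columns, and Ccl25 and Ccl28 are higher there.

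In adult mutant ovaries 4 ligands and 1 receptor rose against wild-type ovaries, and 1 ligand fell. Those that rose were Cx3cl1, Cxcl16, Cxcl10, Ccl2 and Cxcr4, by 1.76-fold to 2.17-fold, and Cxcl14 fell by 1.81 on the log2 scale. With limma fitted over all 19938 genes and a Benjamini-Hochberg adjusted p under 0.05, 6 of 49 genes (12.2%) passed, against 16.2% of all genes. By direction, 10.2% of the 49 genes rose against 9.55% of all genes, and 2.04% fell against 6.66%. The median difference was 0.09 for the 49 genes and -0.02 for all genes. The share that rose was close to that of the array and the share that fell was below it, so the counts themselves are no result about the family. These calls drew part of their estimate of spread from the testes. With only the ovaries fitted, Cx3cl1 passed (limma adjusted p = 0.00777), and 1731 of all genes did. Cxcl14, Cxcr4, Cxcl16, Ccl2 and Cxcl10 did not pass in that fit (limma adjusted p 0.0656 to 0.101).

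**Figure D2:**
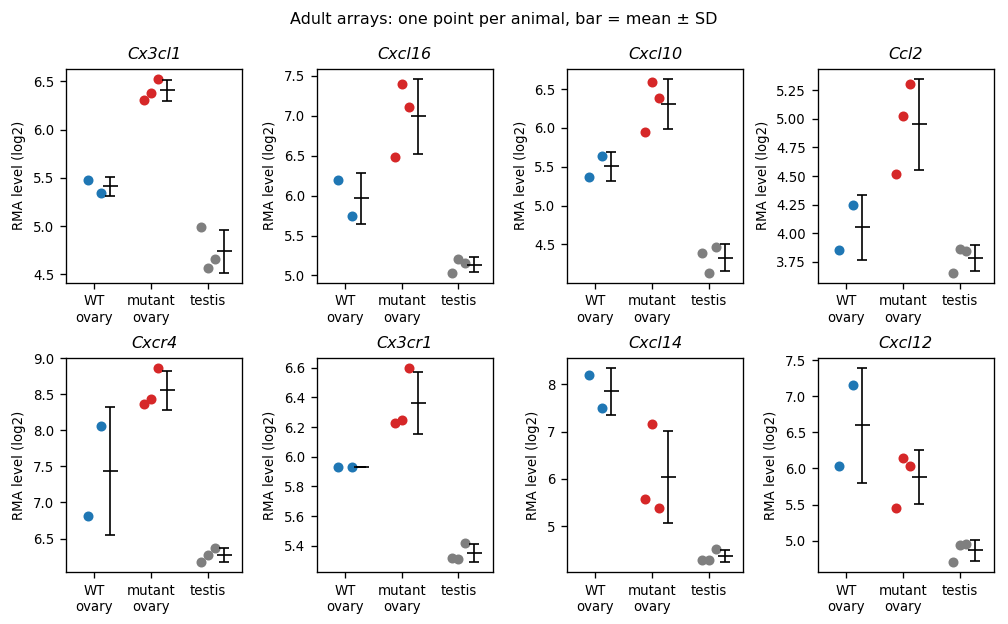
Log2 RMA level (vertical axes, which do not start at 0 and differ between panels) of 8 genes on each adult array; each point is 1 animal, and the bar is the mean ± SD of the group (n = 2, 3 and 3). The 3 mutant ovaries lie above both wild-type ovaries for Cx3cl1, Cxcl16, Cxcl10, Ccl2, Cxcr4 and Cx3cr1 and below both for Cxcl14, while the ovary groups overlap for Cxcl12.

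Cx3cl1 encodes fractalkine, a membrane-bound chemokine that can be shed and that binds the receptor Cx3cr1 on monocytes, macrophages and microglia. Its level was 5.48 and 5.34 in wild-type ovaries, 6.31, 6.38 and 6.53 in the mutant ovaries and 4.99, 4.56 and 4.66 in the testes. The 3 mutant ovaries lay above both wild-type ovaries, with little spread in either group. The difference was 1.00 ± 0.16 (log2, SE; 1.99-fold; limma adjusted p = 0.00175). Cx3cl1 passed in 16 of 17 alternatives, with a difference of 0.91 to 1.06, and missed only where a difference of at least 1 was required, since its difference before rounding was just under 1.

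Cxcl16, likewise a membrane-bound chemokine, is the ligand of Cxcr6 and also takes up oxidised lipoprotein. Its level was 6.19 and 5.74 in wild-type ovaries, 6.48, 7.40 and 7.11 in mutant ovaries and 5.03, 5.21 and 5.16 in testes. All mutant ovaries were higher, and mutant ovary 1 was the nearest to the wild-type range. The difference was 1.04 ± 0.25 (2.05-fold; limma adjusted p = 0.0166), and the call was lost without wild-type ovary 2 (0.81) or without mutant ovary 3 (0.98). Its receptor Cxcr6 lay above the array median on no array and differed by 0.03 ± 0.11.

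The 3 ligands of Cxcr3, which attract activated T cells and natural killer cells, are known for their induction by interferon. Of these Cxcl10 rose, from 5.37 and 5.64 in wild-type ovaries to 5.95, 6.59 and 6.39 in mutant ovaries. The groups did not overlap, and the difference was 0.81 ± 0.20 (1.76-fold; limma adjusted p = 0.0193). Leaving out wild-type ovary 1 (0.68) lost the call, as did leaving out mutant ovary 2 (0.67) or 3 (0.77). The other two did not pass, with differences of 0.14 ± 0.13 for Cxcl9 and -0.08 ± 0.13 for Cxcl11. Their receptor Cxcr3 was 4.51 and 4.60 in wild-type and 5.03, 5.05 and 4.80 in mutant ovaries, a difference of 0.41 ± 0.18 (limma adjusted p = 0.167). Of 11 interferon response genes measured, 1 rose (Oasl2, 0.83) and 1 fell (Rsad2, -0.59), against 9.55% and 6.66% of all genes.

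Among the 12 inflammatory CC ligands, Ccl2 rose and the other 11 did not pass. Ccl2, the main monocyte attractant and ligand of Ccr2, was 3.85 and 4.25 in wild-type ovaries, 4.52, 5.03 and 5.31 in mutant ovaries and 3.65, 3.86 and 3.84 in testes. The mutant ovaries were higher without overlap, although only 2 of the 8 arrays, both of mutant ovaries, exceeded the array median. The difference was 0.90 ± 0.22 (1.87-fold; limma adjusted p = 0.0183), and the call was lost without wild-type ovary 1 (0.70) or mutant ovary 2 (0.86). Ccl8, another monocyte attractant, came next at 0.55 ± 0.18 (limma adjusted p = 0.0714). The remaining differences of the group lay between -0.23 for Ccl11 and 0.36 for Ccl12. Ccr2 was 2.82 and 3.24 in wild-type and 3.14 to 3.22 in mutant ovaries, overlapping values under the array median (0.16 ± 0.13).

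Many chemokine genes sit side by side in clusters of paralogs. In the order of protein-coding genes in RefSeq GRCm38.p6, 26 of the 48 genes found there formed 8 runs of direct neighbours. In the run Ccl2, Ccl7, Ccl11, Ccl12, Ccl8 and Ccl1 the differences between mutant and wild-type ovaries were 0.90, 0.18, -0.23, 0.36, 0.55 and -0.11. Only Ccl2 passed in that run. Cx3cl1 lies between Ccl22 and Ccl17, ligands of Ccr4, which differed by 0.19 ± 0.23 and 0.00 ± 0.23 and did not pass.

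Of the 7 homeostatic or dual CC ligands and the 5 CXC ligands of the neutrophil receptor Cxcr2, 0 passed with limma (2 and 1 at an unadjusted p under 0.05). Ccl19, which guides lymphocytes and dendritic cells that carry Ccr7, was 5.31 and 5.32 in wild-type and 5.60, 6.36 and 5.61 in mutant ovaries. All 3 mutant values were higher, with mutant ovary 2 standing above the others, and the difference was 0.55 ± 0.24 (limma adjusted p = 0.158). Ccl28, a mucosal chemokine, was 3.81 and 4.28 in wild-type and 3.34, 3.74 and 3.58 in mutant ovaries. It was lower in all 3 mutant ovaries by 0.49 ± 0.18 (limma adjusted p = 0.105), and passed only without wild-type ovary 1 (-0.72, adjusted p = 0.031). For Cxcl1 the difference was -0.11 ± 0.17, with all 5 ovaries between 5.55 and 5.97.

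Cxcl14 was the gene of the family that fell. It is a chemokine of epithelia and stroma whose receptor is still debated. Its levels were 8.20 and 7.50 in wild-type ovaries, 5.58, 7.15 and 5.39 in mutant ovaries and 4.30, 4.30 and 4.53 in testes. Mutant ovaries 1 and 3 were far below the wild-type ovaries, and mutant ovary 2 was only just below the lower of them. The difference was -1.81 ± 0.44, or 3.51-fold lower (limma adjusted p = 0.0181). Leaving out wild-type ovary 1 (-1.47) lost the call, as did leaving out mutant ovary 1 (-1.58) or 3 (-1.49), and the difference was -2.37 without mutant ovary 2.

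Cxcr4 was the receptor that rose. It is carried by leukocytes, endothelium and germ cells and binds Cxcl12. Its levels were 6.81 and 8.06 in wild-type ovaries, 8.36, 8.44 and 8.87 in mutant ovaries and 6.17, 6.27 and 6.37 in testes. The mutant ovaries formed a narrow group above both wild-type ovaries, which lay far apart. The difference was 1.12 ± 0.30 (2.17-fold; limma adjusted p = 0.0291). Its size hung on the wild-type ovaries, being 0.50 (adjusted p = 0.11) without wild-type ovary 1 and 1.74 (adjusted p = 0.000139) without wild-type ovary 2. It passed in 10 of 17 alternatives, and the call was also lost without mutant ovary 2 (1.18) or 3 (0.96) or without any 1 testis (1.12 each).

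The ligand Cxcl12, made by stroma and endothelium, did not pass. It was 6.03 and 7.16 in wild-type and 5.45, 6.14 and 6.04 in mutant ovaries, which overlapped. The difference was -0.72 ± 0.30 (limma adjusted p = 0.148). It became -1.28 (adjusted p = 0.0045) without wild-type ovary 1 and -0.16 (adjusted p = 0.75) without wild-type ovary 2. Wild-type ovary 1 had the lower level of both Cxcr4 and Cxcl12.

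Of the other receptors, Cx3cr1, which binds Cx3cl1, came nearest to the threshold. Cx3cr1 was 5.93 in both wild-type ovaries, 6.23, 6.25 and 6.60 in mutant ovaries and 5.32, 5.31 and 5.42 in testes. The 3 mutant ovaries were higher without overlap by 0.43 ± 0.14 (1.35-fold; limma adjusted p = 0.0747), and the gene passed under none of the 17 alternatives (adjusted p 0.057 to 0.194). The 9 CC receptors, all below the array median, differed by -0.34 to 0.16, and 0 of them passed with limma (1 at an unadjusted p under 0.05, Ccr1). Ccr10 and Ccr7, receptors of skin-homing and of lymph-node-homing cells, both differed by -0.05, with standard errors of 0.13 and 0.16. Counted by overlap alone, 13 of the 49 genes (26.5%) had mutant and wild-type ovaries that did not overlap, against 39.9% of all genes; 10 were higher (20.4%, against 19.3%) and 3 lower (6.12%, against 20.6%).

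The differences of all 49 genes are drawn for mutant ovary and for testis, each against the same 2 wild-type ovaries, which the comparisons therefore share.

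**Figure D3:**
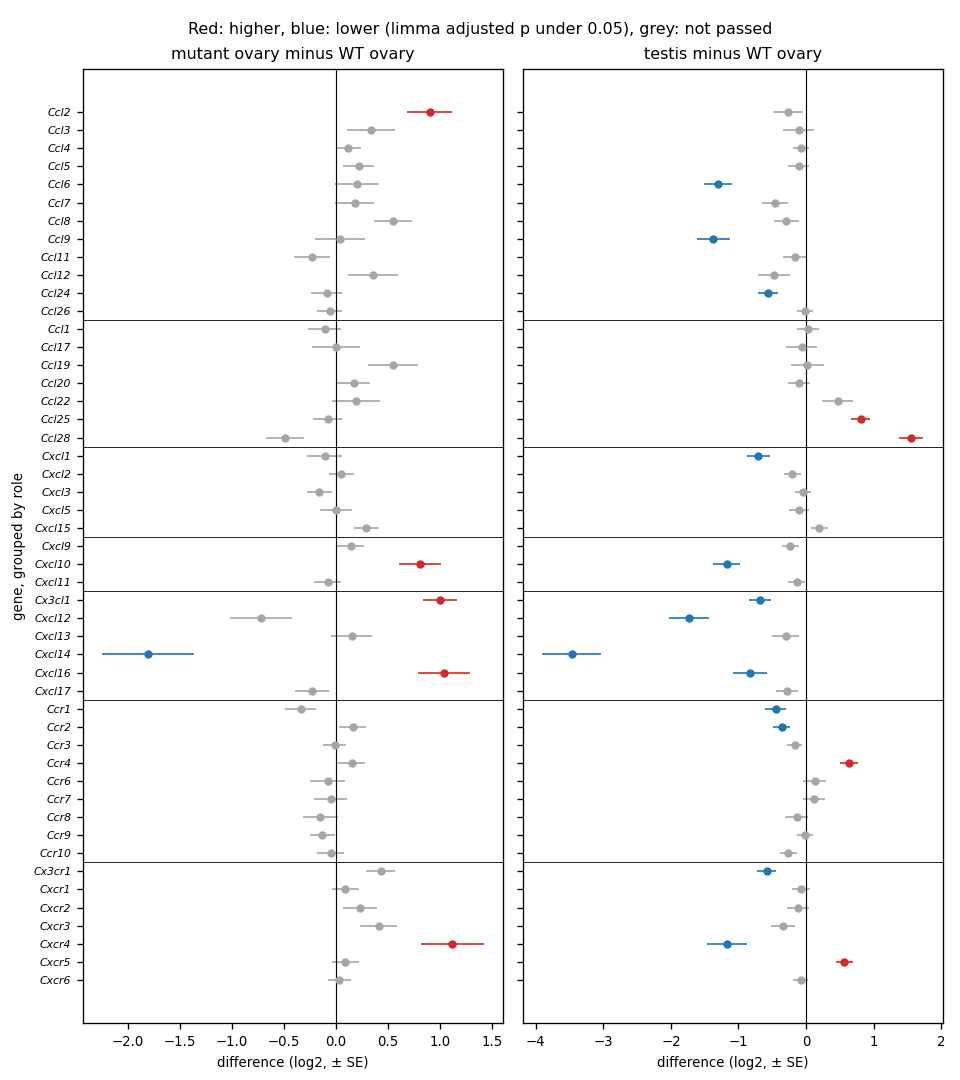
Difference (log2, horizontal axes) of each gene in mutant ovary and in testis against the same wild-type ovaries, with the SE of the limma fit as bars; red and blue points passed at an adjusted p under 0.05. In mutant ovary 5 genes are red and 1 is blue, and in testis 4 are red and 13 are blue.

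The promoters of the called genes are shown to give the sequence next to their start sites. Of the 49 genes, 35 had a promoter in the RefSeq table (GRCm38.p6), and Ccl2 and Cxcl16 had none there. The 250 bases before the start are printed 5′ to 3′ on the gene's strand, with capitals at matches to the motifs searched on both strands. The NF-kappaB motif was GGG, any 2 bases and TTTCC, and the interferon response motif was GAAA, any 2 bases and GAAA. The forkhead motif searched was GTAAACA. For the core promoter element that positions the start of transcription the letters were TATAAA. The motif of the AP-1 factors was TGANTCA. A match is only a description of the letters. Cx3cl1 (chr8:94771930-94772179, + strand), Cxcl10 (chr5:92348890-92349139, - strand), Cxcl14 (chr13:56296552-56296801, - strand), Cxcr4 (chr1:128592300-128592549, - strand) and Cxcl12 (chr6:117168285-117168534, + strand) read as follows.
Cx3cl1: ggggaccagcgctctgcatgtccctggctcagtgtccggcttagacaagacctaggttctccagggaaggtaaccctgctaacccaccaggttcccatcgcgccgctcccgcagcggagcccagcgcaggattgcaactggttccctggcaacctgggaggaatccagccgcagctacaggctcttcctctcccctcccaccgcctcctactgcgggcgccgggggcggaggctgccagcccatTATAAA
Cxcl10: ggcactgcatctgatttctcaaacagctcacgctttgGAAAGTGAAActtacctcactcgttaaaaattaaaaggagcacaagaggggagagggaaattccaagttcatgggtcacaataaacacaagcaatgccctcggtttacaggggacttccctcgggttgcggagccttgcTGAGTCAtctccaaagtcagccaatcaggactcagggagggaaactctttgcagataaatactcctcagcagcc
Cxcl14: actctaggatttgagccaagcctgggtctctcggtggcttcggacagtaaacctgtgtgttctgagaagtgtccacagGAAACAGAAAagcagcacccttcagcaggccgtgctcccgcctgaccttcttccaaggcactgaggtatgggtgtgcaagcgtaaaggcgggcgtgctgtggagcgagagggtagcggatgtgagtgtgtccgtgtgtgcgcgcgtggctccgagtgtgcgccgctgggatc
Cxcr4: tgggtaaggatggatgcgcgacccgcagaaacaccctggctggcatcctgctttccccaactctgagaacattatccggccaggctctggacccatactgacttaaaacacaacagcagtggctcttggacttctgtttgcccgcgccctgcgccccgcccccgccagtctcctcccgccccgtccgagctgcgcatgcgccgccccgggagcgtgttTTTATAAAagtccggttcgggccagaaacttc
Cxcl12: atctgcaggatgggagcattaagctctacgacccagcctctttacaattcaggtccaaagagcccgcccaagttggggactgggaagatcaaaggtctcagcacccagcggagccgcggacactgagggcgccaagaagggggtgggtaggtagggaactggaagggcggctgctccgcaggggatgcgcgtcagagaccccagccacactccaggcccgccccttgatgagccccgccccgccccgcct

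Cx3cl1 held TATAAA in the last 6 bases before its start, and Cxcr4 held it 30 to 25 bases before its start, where it overlaps a match on the opposite strand. Cxcl10 held GAAAGTGAAA 213 to 204 bases and TGAGTCA 74 to 68 bases before its start. Cxcl14, which fell, held GAAACAGAAA 172 to 163 bases before its start. Cxcl12 held none of the motifs. The interferon response motif was found in 3 of the family's 37 promoters (8.11%) and in 2.97% of 32817 promoters. The NF-kappaB motif, in the letters searched, was found in 6 (16.2% against 1.41%), none of them of a gene called in mutant ovary. Other forms of that motif were not searched, and Ccl2 and Cxcl16 had no promoter to search, so the called genes may still hold such sites. TATAAA was found in 10 (27.0% against 12.4%), TGANTCA in 4 (10.8% against 6.75%) and GTAAACA in 0 (3.16% of all promoters). Only this exact forkhead form was searched, so the lack of a match does not show that forkhead sites are absent. Several of these promoters belong to clustered paralogs and are not independent, and no test was made.

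The genes that act with chemokines held no rise that passed. Of 19 companions measured (atypical receptors, G-protein signalling, arrestins, a protease and further chemokines), 0 rose and 4 fell with limma (8 at an unadjusted p under 0.05) in mutant against wild-type ovaries. Of all genes, 9.55% rose and 6.66% fell in this comparison, and the share at an unadjusted p under 0.05 was not counted. Ccrl2, a receptor-like protein that presents chemerin, was 6.12 and 7.96 in wild-type and 5.34, 5.61 and 5.13 in mutant ovaries (-1.68 ± 0.41; limma adjusted p = 0.0195). Ackr1, an atypical receptor of venular endothelium that binds chemokines without signalling, was 4.16 and 3.57 against 3.14, 3.14 and 3.16 (-0.72 ± 0.15; limma adjusted p = 0.00949). Every Ackr1 level was under the array median, and the testes were at 3.07 to 3.09. Ccrl2 and Ackr1 were both lower in all 3 mutant ovaries. The protease Dpp4, which trims chemokines, fell by 0.46 and the arrestin Arrb1 by 0.49. The sizes hung on the wild-type ovaries, being -2.60 for Ccrl2 and -0.43 for Ackr1 without wild-type ovary 1, and -0.76 and -1.01 without wild-type ovary 2. The Ccrl2 call was lost without mutant ovary 1 (-1.67) or 3 (-1.56), the Arrb1 call without wild-type ovary 1 (-0.36), mutant ovary 1 or 3 (-0.48 each) or testis 2 (-0.49), and the Dpp4 call without any 1 ovary (-0.42 to -0.49) or without testis 2 or 3 (-0.46 each). In the same comparison 4 of 7 endothelial markers fell (2 when mutant ovary 1 or 3 or the second wild-type ovary was left out), with mean levels of 7.26 to 7.75 in wild-type and 6.68 to 7.03 in mutant ovaries, and their part in these results was not tested.

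Leukocyte markers were read beside the chemokines. Of 12 macrophage markers 3 rose (Adgre1 by 0.73, Cd14 by 0.90 and Aif1 by 0.51) and 1 fell (Cd163, -0.53). Of all genes, 9.55% rose and 6.66% fell between these ovaries. Of the 12 macrophage markers, 8 were at an unadjusted p under 0.05, a share that was not counted over all genes. The ovary groups did not overlap for 10 of the 12, against 39.9% of all genes. The mean level of the 12 markers was 5.76 to 5.79 in wild-type ovaries, 6.01 to 6.36 in mutant ovaries and 5.35 to 5.46 in testes, and 1 of the 12 was above the array median on no array. The testis mean includes Aif1, which was 9.59 to 9.63 there and 4.14 to 4.89 in the ovaries, while 8 of the 12 fell in testis against wild-type ovary (median difference -0.79). The Aif1 levels in the ovaries lay near or under the medians of those arrays (4.83 to 4.94), so its rise was between low signals. Of 6 pan-leukocyte markers 1 rose (Coro1a, 0.53), with mean levels of 5.87 to 5.91 in wild-type and 5.98 to 6.61 in mutant ovaries. Ptprc, which encodes CD45, differed by 0.36 ± 0.22 between overlapping groups (limma adjusted p = 0.33). Of the 6 T cell markers 0 passed with limma (0 at an unadjusted p under 0.05), and all of them lay above the array median on no array. Of 12 NF-kappaB response genes 3 rose, namely Nfkbia (1.42), Vcam1 (1.25) and Birc3 (0.92), against 9.55% of all genes. At an unadjusted p under 0.05 there were 7, a share again not counted over all genes. The ovary groups did not overlap for 7 of these 12, against 39.9% of all genes. The part of leukocyte content in the higher Cx3cl1, Cxcl16, Cxcl10, Ccl2 and Cxcr4 was not tested.

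Testes were lower than wild-type ovaries for 13 of the 49 genes and higher for 4. With limma 17 genes (34.7%) passed, against 60.3% of all genes; 26.5% fell against 35.9% of all genes, and 8.16% rose against 24.4%. The median difference was -0.17 for the family and -0.15 for all genes. The groups did not overlap for 28 genes (57.1%), against 73.8% of all genes, with 6 higher (12.2%, against 28.5%) and 22 lower (44.9%, against 45.4%) in testis. These are different organs with different cell types, among them spermatids, whose 8 markers were all higher in testis.

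Cxcl14 was lower in testis by the widest margin of the family, -3.47 ± 0.44 (11.1-fold lower; limma adjusted p = 4.55e-05). Cxcl12 was 4.70, 4.94 and 4.95 in testes, below every ovary of either genotype, and fell by 1.73 ± 0.30 against wild-type ovary (limma adjusted p = 0.000537). Cxcr4 fell by 1.17 ± 0.30, Cxcl10 by 1.17 ± 0.20, Cxcl16 by 0.83 ± 0.25, Cx3cl1 by 0.68 ± 0.16 and Cx3cr1 by 0.58 ± 0.14, each past the threshold (Cxcl16 not without wild-type ovary 1, at -0.60), while Ccl2 did not pass (-0.27 ± 0.22; limma adjusted p = 0.317). Leaving out wild-type ovary 1 gave -1.79 for Cxcr4 in testis, and leaving out wild-type ovary 2 gave -0.54. Among the 12 inflammatory CC ligands, Ccl9 and Ccl6, ligands of Ccr1, fell most. Ccl9 was 5.36 and 4.86 in wild-type ovaries and 3.82, 3.74 and 3.66 in testes (-1.37 ± 0.24; limma adjusted p = 0.000534). Ccl6 was 4.93 and 5.08 against 3.65, 3.56 and 3.91 (-1.30 ± 0.21; limma adjusted p = 0.000268). These neighbouring genes were low in all 3 testes, and in mutant ovaries, at 4.87 to 5.67 and 4.95 to 5.64, they overlapped wild-type ovaries. Cxcl1 (-0.71), Ccl24 (-0.56), Ccr1 (-0.45) and Ccr2 (-0.36) also fell. All 6 pan-leukocyte markers fell in testis, with mean levels of 4.72 to 4.77 there, and their part in these falls was not tested.

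Ccl28, Ccl25, Ccr4 and Cxcr5 were the 4 genes higher in testis than in wild-type ovary. Ccl28 was 5.47, 5.54 and 5.81 in testes, above all ovaries and, in testis alone, above the array median (1.56 ± 0.18 against wild-type ovary; limma adjusted p = 2.69e-05). Ccl25, a ligand of Ccr9 known from thymus and gut, was 6.00, 6.21 and 5.87 in testes and 5.02 to 5.26 in the 5 ovaries (0.81 ± 0.14; limma adjusted p = 0.000567). Its other probe set showed the same order, with 5.44, 5.54 and 5.59 in testes and 4.03 to 4.64 in ovaries. Ccr4 and Cxcr5, receptors of T helper cells and of follicular lymphocytes, were higher by 0.64 ± 0.13 and 0.57 ± 0.13, with every level under the array median.

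Mutant ovaries, set against testes directly, were higher for 20 of the 49 genes and lower for 4. With limma 24 genes (49.0%) passed, against 61.8% of all genes; 40.8% were higher against 37.5% of all genes, and 8.16% lower against 24.3%. The median was 0.25 for the family and 0.14 for all genes. Above testis stood Cxcr4 by 2.29 ± 0.27, Cxcl10 by 1.99 ± 0.18, Cxcl16 by 1.86 ± 0.22, Cx3cl1 by 1.67 ± 0.14, Cxcl14 by 1.66 ± 0.39 and Ccl2 by 1.17 ± 0.19. By group mean the order from low to high was testis, wild-type ovary and mutant ovary for Cxcr4, Cxcl10, Cxcl16, Cx3cl1 and Ccl2, and testis, mutant ovary and wild-type ovary for Cxcl14. For Ccl2 one wild-type ovary (3.85) lay within the range of the testes (3.65 to 3.86). Cxcl12 and Cx3cr1 each exceeded testis by 1.01, with SE of 0.27 and 0.13. Ccl28 (-2.05 ± 0.16), Ccl25 (-0.89 ± 0.13), Ccr4 (-0.49 ± 0.11) and Cxcr5 (-0.48 ± 0.11) were lower in mutant ovary. The groups did not overlap for 28 genes (57.1%), against 69.5% of all genes, with 24 higher (49.0%, against 42.8%) and 4 lower (8.16%, against 26.7%) in mutant ovary. These comparisons share their arrays with those before and are not independent of them.

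At P3, Cxcl12 was the chemokine gene that changed, and it was lower in Foxl2 KO ovaries. The 2 KO pools had Cxcl12 signals of 842.2 and 863.8, and the 2 wild-type pools had 2976.5 and 2438.9. The groups were far apart relative to the spread within them. The difference was -1.64 ± 0.15 on the log2(signal + 16) scale, or 3.12-fold lower (limma adjusted p = 0.0201 over 18194 genes). Another Cxcl12 probe set gave 461.5 and 577.5 in KO and 1105.3 and 1006.6 in wild-type pools, also without overlap. The third was dim, with signals of 9.2 to 58.3 that overlapped, and the mean of the 3 probe sets gave -1.02 (limma adjusted p = 0.165). With only 2 pools a group, leaving out any 1 of the 4 pools left 1 pool in its group. The difference was then -1.78 to -1.50, and the call was lost each time. The call was also lost without the intensity trend (limma adjusted p = 0.179). Of 6 stromal and 7 endothelial markers 0 passed with limma at P3 (2 and 2 at an unadjusted p under 0.05), with median differences of -0.38 and -0.52, and 2 of 8 granulosa cell markers fell; their part in the lower Cxcl12 was not tested.

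This was 1 of 46 genes (2.17%), against 0.324% of all genes, and all the P3 values are limited by the 2 pools in each group. The median difference was -0.23 for the family and -0.01 for all genes. The groups did not overlap for 22 genes (47.8%), against 38.9% of all genes, with 9 higher (19.6%, against 19.3%) and 13 lower (28.3%, against 19.7%) in KO pools. Of the 46 genes 22 were above the array median on no P3 array, 13 on some and 11 on all 4.

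**Figure D4:**
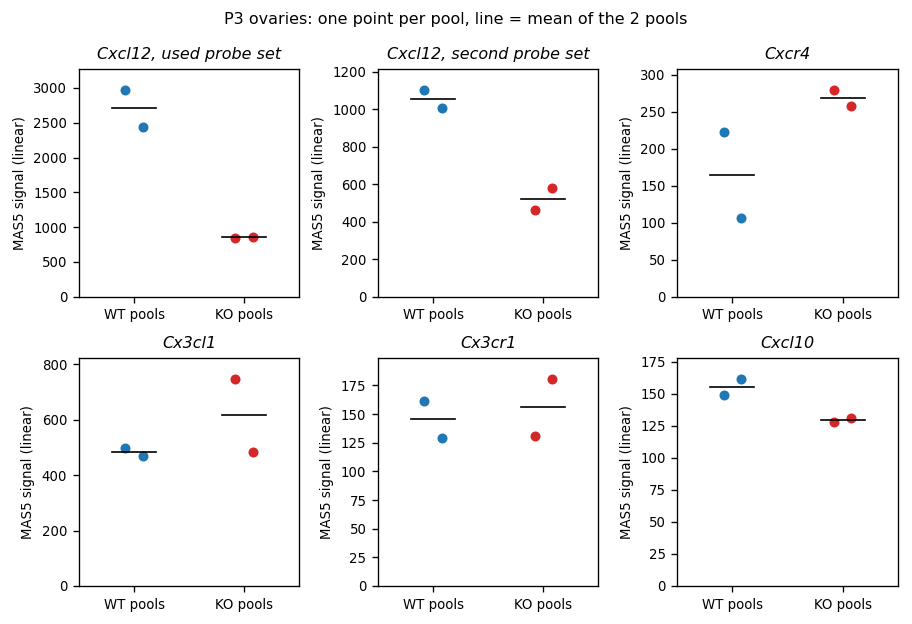
MAS5 signal (linear, vertical axes from 0) of 5 genes in the pools of P3 ovaries; each point is 1 pool of more than 10 females and each line the mean of 2 pools, with a second panel for another Cxcl12 probe set. Both Cxcl12 panels show the KO pools below the wild-type pools; Cx3cl1 and Cx3cr1 overlap between genotypes.

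The genes called in adult mutant ovaries did not pass at P3. Cxcr4 was 280.2 and 257.3 in KO and 223.2 and 106.5 in wild-type pools, higher without overlap by 0.73 ± 0.37 (limma adjusted p = 0.646). Cx3cl1 was 748.2 and 483.0 in KO and 498.6 and 467.9 in wild-type pools, which overlapped (0.31 ± 0.24), and Cx3cr1 differed by 0.08 ± 0.32. Cxcl10 was 127.9 and 131.0 in KO and 148.7 and 161.7 in wild-type pools, with the KO pools the lower (-0.23 ± 0.29). Cxcl14 was 130.0 and 147.0 against 153.5 and 227.2 (-0.40 ± 0.32). For Cxcl16 (-0.22 ± 0.38) and Ccl2 (-0.30 ± 0.65) the groups overlapped, and Ccl2 was below the array median in all pools. A second Cxcl16 probe set was 145.2 and 34.7 in KO and 163.3 and 169.8 in wild-type pools. It was lower in KO without overlap (-1.01), and no test was made of it alone. Other Cx3cl1 probe sets were dimmer and differed by -0.30, -0.52 and 0.39. The intervals were wide: for Cxcl10 the difference had a 95% interval of -0.94 to 0.47 and for Cx3cl1 of -0.28 to 0.90.

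Cxcl17, a mucosal chemokine for monocytes and dendritic cells, had the next smallest p at P3, and is named here after its values were seen. It was 20.1 and 60.1 in KO and 163.5 and 144.8 in wild-type pools (-1.70 ± 0.45), unadjusted p = 0.00845 and limma adjusted p = 0.255. In the adult its mutant and wild-type ovaries overlapped (-0.23 ± 0.16). Other genes of the family with signal above the median in all 4 pools did not pass, among them Cxcl1 (-0.10 ± 0.32), Ccl25 (-0.01 ± 0.33), Cxcr3 (-0.06 ± 0.29), Ccr6 (0.07 ± 0.27) and Ccl4 (-0.58 ± 0.26). Ccl17 was 229.2 and 237.8 in KO and 164.6 and 106.3 in wild-type pools (0.75 ± 0.31; limma adjusted p = 0.532). Of 19 companions, 12 macrophage, 6 pan-leukocyte, 12 interferon response and 12 NF-kappaB response genes measured at P3, 0 passed with limma; at an unadjusted p under 0.05 the counts were 0, 2, 0, 3 and 1 in that order.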

How the data were processed

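Total RNA was labelled from 300 ng per adult organ with the GeneChip WT sense target protocol and from 1 µg per P3 pool with a protocol the labels name as CodeLink, which conflicts with the Affymetrix form of the P3 probe set names. The submitters' processing notes name RMA and the Affymetrix Expression Console for the adult arrays, whose deposited values are log2 levels. For P3 those notes name MAS5, and the deposited values are a linear intensity. Versions of that software, or a genome build for the arrays, were not given in the sources used here. Columns of other samples numbered 0.

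Of 35557 adult and 45101 P3 probe sets, 21789 and 34958 had a single gene in the platform annotation, 1621 and 932 had several and 12147 and 9211 were unnamed here. Gene identifiers were looked up in RefSeq (GRCm38.p6) for current symbols, and 91 and 204 probe sets kept their older symbol. Per gene, the single-gene probe set with the highest mean over the table's arrays was used, without a filter on low values. Tests used R 4.3.3 and limma 3.58.1 (lmFit and eBayes with an intensity trend, two-sided, Benjamini-Hochberg over all genes of a table). The 8 adult arrays were fitted together with 1 mean per group, and the 4 P3 arrays alone as log2(signal + 16), a scale that understates changes of dim genes. The code was tested on simulated data. No test was made across the tables. The number of arrays limits the precision.

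Genes were named if they passed in mutant or KO against wild-type ovary, were among the 5 ligands or 5 receptors with the highest mean in a group (a ranking of probe set signals used only to choose names), or had the 5 largest rises or falls involving testis; Cxcl12, Cxcr4, Cx3cl1 and Cx3cr1, companions that passed in mutant ovary, and Foxl2 were always named. A few others are given as the partner, neighbour or group mate of a named gene. The members, the gene lists and the tests were chosen with earlier results of these data known. Alternatives covered the probe set, a filter keeping genes above the array median on at least 2 arrays, the trend, a difference of at least 1, a replicate block, older symbols, scaling, the samples fitted, the pseudocount (1 and 64) and each array left out.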

Additional observations from a re-analysis of the deposited data

Results flagged for a closer look

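Cxcl10 was flagged because its measured differences had opposite signs at the ages compared. In adults the mutant ovaries were all above the wild-type ovaries (0.81, passed), whereas at P3 both KO pools were below both wild-type pools (-0.23, not passed). The difference between the ages was not tested, since the adult and P3 values come from different arrays, alleles and normalizations.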

How the results depend on the processing

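No named gene's called difference changed sign under any alternative. With a difference of at least 1 required, the counts were 3 (mutant against wild-type ovary), 7 (testis against wild-type ovary) and 11 (mutant ovary against testis). With only the ovaries fitted, Cx3cl1 was the 1 gene called. Leaving out each array gave 2 to 6 genes for mutant against wild-type ovary (2 without mutant ovary 3), 15 to 20 for testis, 21 to 26 for mutant ovary against testis and 0 to 0 at P3. At P3 the mean of probe sets and the fit without a trend each gave 0. Over all genes, the required difference left 1119, 6909 and 7181 adult calls, and the ovaries alone gave 1731. At P3 all-gene calls numbered 59, with 22 for the mean of probe sets, 209 with the filter, 0 without the trend and 0 to 22 without a pool. Of adult mutant calls 58.9% were higher, but 43.5% after centring on the 75th percentile, which moved the median of all genes from -0.02 to -0.11; the family kept 5 higher and 1 lower. The filter kept 18 of 49 adult and 20 of 46 P3 genes.

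The labels do not say that replicate numbers pair animals. Same-numbered arrays deviated together weakly at most (r across genes of -0.003 to 0.079 in adults and 0.042 at P3). Each mutant ovary and testis correlated best with its own number (r of 0.058 to 0.079) and negatively with the other numbers. With the number as a block the counts were 6, 19, 23 and, at P3, 1, and all-gene P3 calls rose to 305. Cxcl12 then passed in adult mutant ovary (-0.78, adjusted p = 0.0405) and Cxcl14 did not (-1.69, adjusted p = 0.0529). The causes of these shifts were not tested.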
